A study of Lupinus micranthus with 18 samples.

Results

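Leaves of Lupinus micranthus seedlings grown from Iceland seeds were compared after 72 h and after 24 h under polyethylene glycol (PEG). The comparison was defined by the labels alone. It took the 3 Iceland libraries labelled 72 h and the 3 labelled 24 h, which is 6 of the 18 libraries of the series. Lupinus micranthus is a lupin, a herb of the legume family. The other libraries came from untreated Iceland seedlings, and from America seedlings that were untreated or kept under PEG for 24 h or 72 h, with 3 libraries in each group. All were made from total RNA of leaves. The labels give no seedling age, PEG concentration, accession, sex or pooling of plants, and no hours for the untreated seedlings. Whether replicates came from separate plants is not stated, so the p-values rest on differences among the libraries that may be technical in origin. Time under PEG cannot be told apart from seedling age or hour of harvest. In whole leaves, fewer cells of a type and less RNA per cell cannot be told apart either.

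PEG is a polymer that plants take up poorly. It lowers the water potential around the roots and so imposes drought without drying the soil. Plants under such stress are known to build up the hormone abscisic acid, close their stomata and accumulate protective solutes and proteins, while transcripts for photosynthesis and growth commonly decline. Early responses can be transient, and leaves sampled after days of stress can differ from leaves sampled on the first day. The comparison of 72 h with 24 h asks which transcript levels differ between these stages in Iceland seedlings.

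Transcripts were counted per unigene, an assembled transcript unit that stands in for a gene, since no genome of the species was used here. The table lists 81470 unigenes by identifier and pairs none of them with a gene name, function or sequence. The leaf identity of the libraries could therefore not be checked against marker genes, and no role can be given for any unigene below. Library totals ran from 9603068 to 12605500 counts over the series. A filter on low counts left 30895 unigenes, all of which were tested. Levels are given as CPM, the count of a unigene relative to the total of its library after TMM scaling, which corrects library totals for differences in RNA makeup. A count of 0 allows up to 3 counts, or 0.223 to 0.352 CPM in a single library, and this limit covers counting error only. Untreated Iceland replicate 3 stood apart from its group, as did, less so, replicate 3 of 24 h and replicate 3 of 72 h among the Iceland PEG libraries. Counts of calls are also given without each of them.

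Between 24 h and 72 h of PEG, 618 unigenes rose and 531 fell in Iceland leaves (edgeR quasi-likelihood test, Benjamini-Hochberg adjusted p under 0.05 over all unigenes tested). These are 2.00% and 1.72% of the unigenes tested, or 3.72% together. Over all calls, rises were larger than falls, though not in the most abundant class by log2 CPM described below. In the most abundant class by FPKM they were the larger (medians 0.97 and -0.95). The median log2 change was 1.70 among the unigenes that rose (quartiles 0.90 and 2.99) and -1.14 among those that fell (quartiles -1.78 and -0.83), beside 0.02 over all unigenes tested (quartiles -0.37 and 0.38). At least 2-fold changes were reached by 426 of the rises and 325 of the falls, which are 1.38% and 1.05% of all tested. At least 4-fold changes were reached by 257 and 107, or 41.6% and 20.2% of the 2 lists. Among all unigenes tested, called or not, 18.6% changed at least 2-fold and 6.86% at least 4-fold.

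The groups separated almost fully in the called unigenes. The same libraries chose these unigenes, so the separation is no independent result. The 3 libraries of 72 h lay above all 3 of 24 h in 612 of the 618 rises, and below them in 512 of the 531 falls. Over all unigenes tested the groups did not overlap in 26.7%. In 35 of the unigenes that rose, or 5.66%, all 24 h libraries had 0 counts, beside 1.29% of all tested. In 10 of those that fell, or 1.88%, all 72 h libraries had 0 counts, beside 0.816% of all tested. The filter could keep such unigenes only through groups where they were counted, so these numbers are description only.

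**Figure D1:**
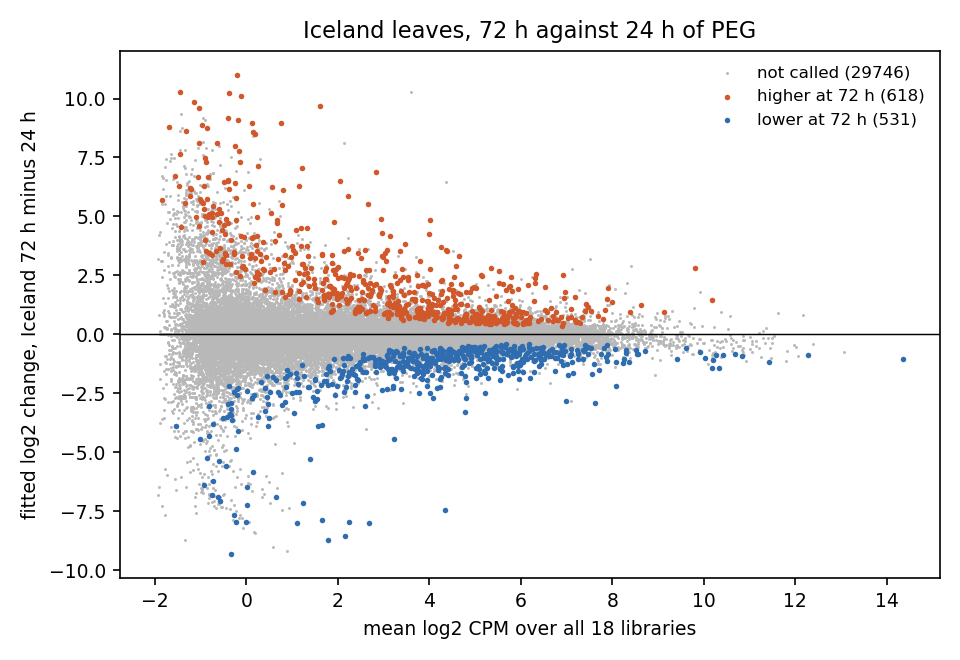
Each point is 1 of the 30895 unigenes tested, with its mean log2 CPM over all 18 libraries on the horizontal axis and its fitted log2 change from 24 h to 72 h in Iceland on the vertical axis. The 618 unigenes that rose (orange) reach larger changes than the 531 that fell (blue), mostly at low abundance, while the point farthest to the right, Unigene0018005, is among those that fell.

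The number of called unigenes depended on single libraries. It was 231 without 72 h replicate 1, 290 without 72 h replicate 2, and 459, 378 and 591 without 24 h replicates 1, 2 and 3. It was 1215 without 72 h replicate 3 and 1812 without untreated Iceland replicate 3, which is in neither group compared but enters the filter, the scaling and the estimate of spread. Leaving out America 72 h replicate 2, also in neither group, gave 743. The balance of rises and falls was not stable either. Rises were 53.8% of calls with all libraries, 45.8%, 49.7% and 46.2% without 24 h replicates 1, 2 and 3, and 49.8% without untreated Iceland replicate 3, so that falls were then the more numerous. They were 62.8%, 60.0% and 55.9% of calls without 72 h replicates 1, 2 and 3. A smaller group of 101 rises and 66 falls passed in each of the 6 refits that left out 1 Iceland PEG library, which is 16.3% and 12.4% of the 2 lists, while 101 rises and 115 falls passed in none of them. Their median log2 changes with all libraries were 2.22 and -1.39.

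The 6 libraries themselves fell into the 2 times with some overlap in similarity. Correlations of log2 CPM across unigenes, which are not independent replicates, ran from 0.919 to 0.957 within 24 h and from 0.941 to 0.971 within 72 h. Between the times they ran from 0.897 to 0.937. On the first principal component of these libraries, which held 44.1% of their variance, the 24 h libraries stood at -82.5, -57.4 and -77.5 for replicates 1, 2 and 3. At 72 h replicates 1 and 2 stood at 94.5 and 94.7, and replicate 3 lay between the times at 28.1. The second component, with 23.0% of the variance, set the 24 h libraries apart from each other, at 81.4, 20.5 and -105 for replicates 1, 2 and 3. Replicate 3 of 24 h correlated with the others of its group at 0.919 and 0.941, and replicate 3 of 72 h with its own at 0.944 and 0.941.

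The balance of rises and falls changed with abundance. When the tested unigenes were divided into 4 equal classes by mean log2 CPM over all 18 libraries, the least abundant class held 98 rises and 39 falls, so that 71.5% of its calls were rises. The next classes held 133 and 78, and 176 and 159. In the most abundant class falls outnumbered rises, at 255 against 211, and 45.3% of calls were rises. The share of unigenes called went up from 1.77% in the least abundant class to 6.03% in the most abundant, beside 3.72% over all. The size of the change went the other way. The median log2 change of the rises was 5.13 in the least abundant class and 0.77 in the most abundant, and that of the falls was -3.87 and -0.88. Over all tested unigenes of a class, called or not, the median log2 change was 0.114 in the least abundant class. In the next classes it was -0.0059, -0.0039 and 0.0073. The filter could keep a unigene through only the group where it was high. The part of the filter and of counting noise at low abundance in these differences was not tested. The split by class was not recomputed without single libraries.

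Among the 200 most abundant unigenes, ranked by mean share over all libraries, 14 fell and 4 rose, beside 1.72% and 2.00% of all unigenes tested. Their median log2 change was -0.27, with 146 of 200 below 0, beside a median of 0.02 over all unigenes tested. In America leaves 6 of them fell and 2 rose, with a median of -0.25. These 200 held 29.6%, 30.2% and 30.8% of the counts in the 24 h libraries and 26.6%, 25.8% and 25.7% in the 72 h libraries. The 2 times did not overlap, and the difference was -4.19 points. An exact two-sided permutation test of 3 libraries against 3 gave p = 0.1, the smallest it can give. In America leaves the share went from 28.2% ± 2.8 to 25.3% ± 1.61 (SD, n = 3 each), and there the times overlapped (difference -2.94 points, exact permutation p = 0.2).

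The single most abundant unigene, Unigene0018005, was also the most abundant per length, with the highest FPKM in all 6 Iceland PEG libraries. Its levels were 33026, 29778 and 29794 CPM in the 24 h libraries and 16129, 14082 and 14793 CPM at 72 h. Every 72 h library was well below every 24 h library. The fall came to 2.06-fold in mean CPM (log2 change -1.04 ± 0.26 SE, edgeR adjusted p = 0.039), and its share of all counts went from 3.14% ± 0.149 to 1.58% ± 0.103 (SD, n = 3 each). The log2 change stayed between -1.09 and -0.99 in all 13 refits, but the adjusted p missed the threshold without any 1 of the 6 Iceland PEG libraries and reached 0.144. In untreated Iceland leaves it stood at 36189, 37352 and 18159 CPM, the low value being that of replicate 3. In America leaves it stood at 17886 ± 2365 CPM at 24 h and 11530 ± 1959 at 72 h (log2 change -0.63 ± 0.26 SE, edgeR adjusted p = 0.265), and the difference between the origins' changes did not pass (edgeR adjusted p = 0.751).

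**Figure D2:**
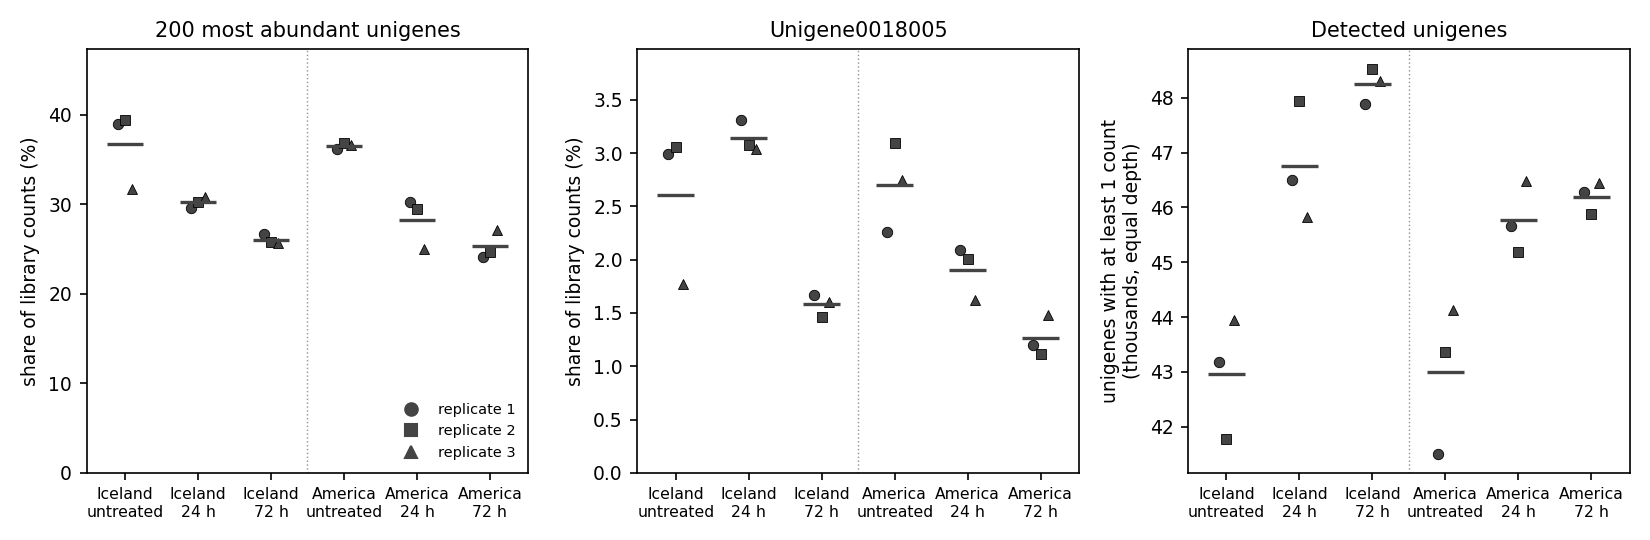
Each point is 1 library and each bar a group mean, for the share of counts held by the 200 most abundant unigenes, the share held by Unigene0018005, and the unigenes with at least 1 count at an equal depth of 9603068 counts. In Iceland the first 2 measures do not overlap between 24 h and 72 h, and the detected unigenes do, with 24 h replicate 2 inside the 72 h range.

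The number of detectable unigenes overlapped between the times. At an equal depth of 9603068 counts, 46500, 47947 and 45826 unigenes had at least 1 count in the 24 h libraries, against 47891, 48532 and 48311 at 72 h. The mean difference was 1487 unigenes (two-sided exact permutation test, p = 0.2), and in America leaves it was 420 (p = 0.4, same exact permutation test).

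The 4 abundant unigenes that rose were singled out after their values were seen. Unigene0002657 is described below. Unigene0002702 went from 759, 711 and 722 CPM at 24 h to 1603, 1715 and 2614 CPM at 72 h, without overlap (log2 change 1.44 ± 0.37 SE, edgeR adjusted p = 0.0432). Unigene0023605 went from 360 ± 90.3 to 685 ± 124 CPM (edgeR adjusted p = 0.0443), and Unigene0078280 from 640 ± 26.3 to 1226 ± 212 CPM (edgeR adjusted p = 0.0448, SD, n = 3 each). Unigene0078280 stood at 97.7 ± 11.4 CPM in untreated Iceland leaves, so its level was higher at each later time, whereas Unigene0002702 and Unigene0023605 stood at 1282 ± 306 and 529 ± 71.6 CPM untreated, between their 24 h and 72 h levels. These 3 calls depended on single libraries. Over the 6 refits without 1 Iceland PEG library, Unigene0002702 passed in 0, and Unigene0023605 and Unigene0078280 in 1 each. None of the 3 was called in America leaves, where the log2 changes were -0.59, -0.25 and 0.78 in the same order. The difference between the origins did not pass for any of them (edgeR adjusted p = 0.158, 0.203 and 0.931).

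The rule for naming unigenes took, in each direction, the largest fitted change and the largest change in mean CPM among called unigenes that reached a mean of 5 CPM and did not overlap between the times. The largest gain in CPM was that of Unigene0002657. It stood at 358, 441 and 142 CPM in the 24 h libraries and at 1922, 2639 and 1987 CPM at 72 h. Every 72 h library was above every 24 h library, and the means differed 6.95-fold (log2 change 2.80 ± 0.54 SE, edgeR adjusted p = 0.0131). The call held in all 13 refits, with adjusted p up to 0.0481. In untreated Iceland leaves the level was 1277 ± 403 CPM (SD, n = 3), so 24 h was the lowest of the 3 stages. America leaves showed a like course, with 1200 ± 438 CPM untreated, 407 ± 270 at 24 h and 1998 ± 828 at 72 h, and the rise from 24 h to 72 h passed there as well (log2 change 2.30 ± 0.53 SE, edgeR adjusted p = 0.0452).

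The largest fitted rise, Unigene0070450, rested on 1 library. It had 0 counts in all 24 h libraries and 1.44, 0.787 and 67.6 CPM in 72 h replicates 1, 2 and 3. The mean at 72 h was at least 252-fold above the limit of 3 counts over the 24 h group (edgeR adjusted p = 0.0339). Without 72 h replicate 3, or without any 1 of the 24 h libraries, it did not pass, and limma-voom did not call it (adjusted p up to 0.318 over these settings). In untreated Iceland leaves it had 1 count over 3 libraries.

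The largest fitted fall, Unigene0079724, went from 23.7, 27.9 and 0.102 CPM in the 24 h libraries to 1 count over the 72 h libraries. The third 24 h library held 1 count as well, so its place above the 72 h libraries rests on library totals. The pooled counts differed 616-fold (95% counting interval 110 to 24383), and the fall passed (edgeR adjusted p = 0.044). The interval covers counting error only and leaves out the spread among the libraries. The call was lost in 7 of 12 refits, among them those without 24 h replicate 1 or 2 and those without any 1 of the 72 h libraries (adjusted p up to 0.424). Untreated Iceland leaves held 14.1, 14.2 and 9.72 CPM, and America leaves 14.7 ± 4.58 CPM at 24 h and 8.72 ± 0.799 at 72 h (SD, n = 3 each). The largest loss in CPM was that of Unigene0018005, given above.

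**Figure D3:**
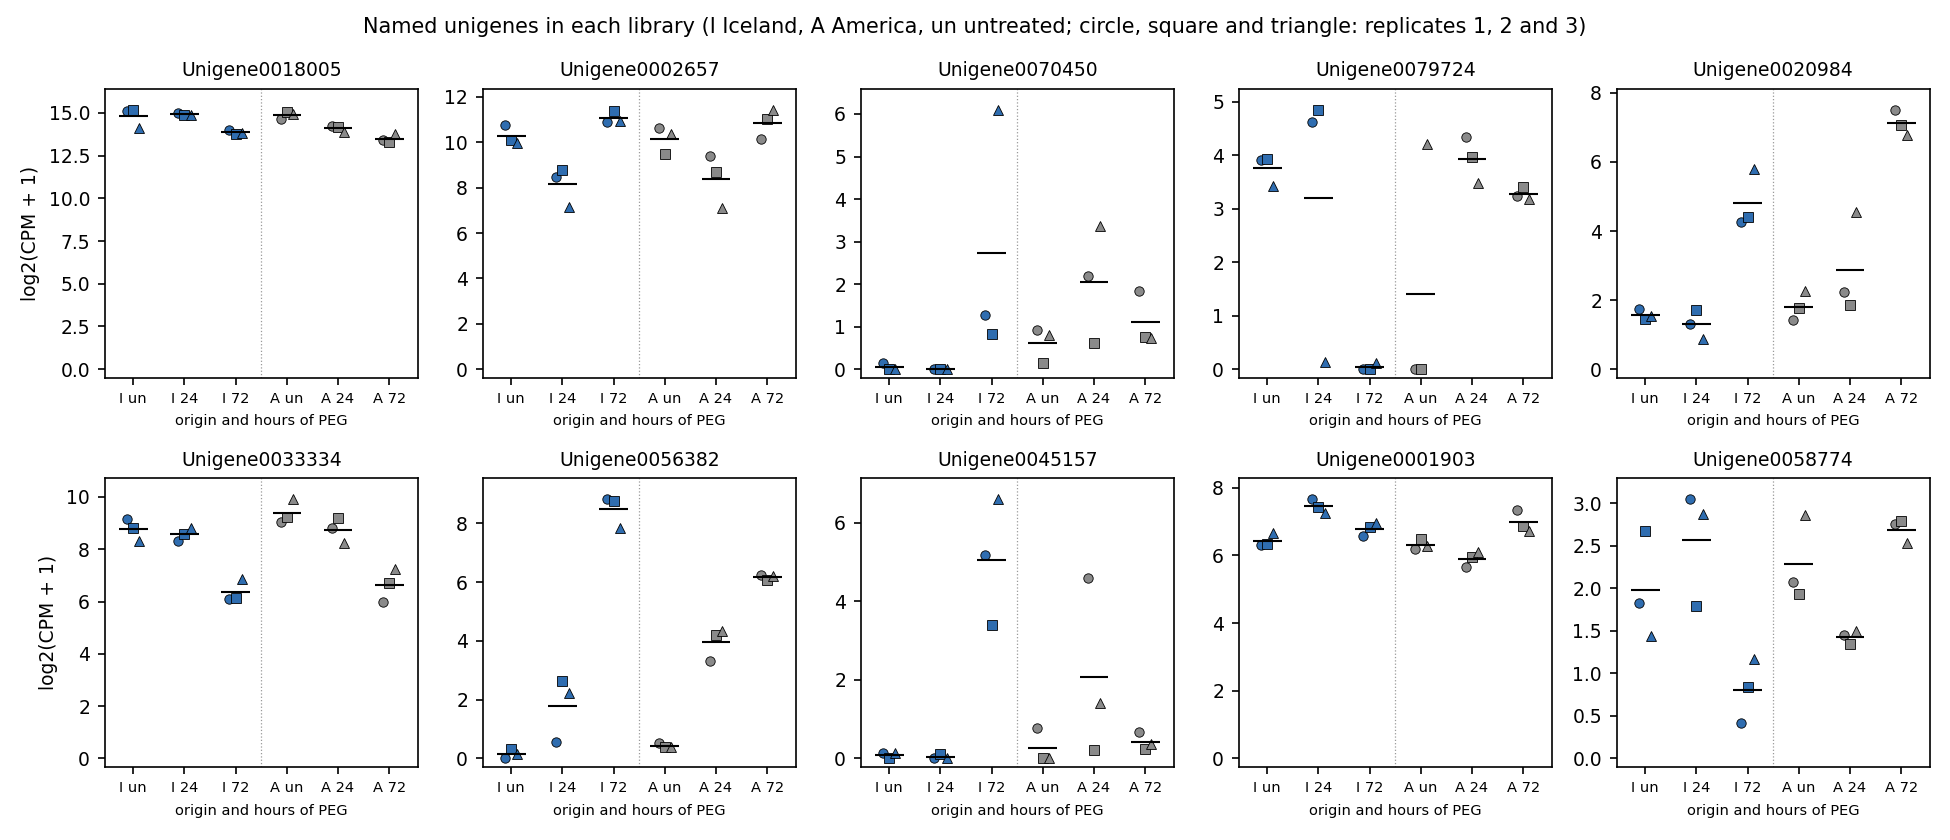
Each panel shows 1 named unigene in all 18 libraries as log2(CPM + 1), with Iceland libraries in blue, America libraries in grey and group means as bars. Unigene0018005 and Unigene0002657 separate by time in every Iceland PEG library, while Unigene0070450 is high in a single 72 h library and Unigene0079724 is near 0 in 1 of the 24 h libraries.

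The called unigenes were also set beside their levels in untreated leaves. The comparisons with untreated leaves share their 24 h or 72 h libraries with the comparison of times, so the values are set side by side only. Unigenes that rose had a median level of 3.03 log2 CPM in untreated Iceland leaves, 2.67 at 24 h and 4.32 at 72 h. Their median log2 change from untreated was -0.12 at 24 h (quartiles -1.21 and 0.65) and 1.29 at 72 h (quartiles 0.41 and 3.16). Unigenes that fell had a median level of 4.62 log2 CPM both untreated and at 24 h, and 3.50 at 72 h. Their median log2 change from untreated was 0.01 at 24 h (quartiles -0.65 and 0.74) and -1.18 at 72 h (quartiles -2.23 and -0.40). In both lists the medians near 0 at 24 h thus stand over members that lay well above and well below their untreated level. The same held over all unigenes tested. There both median changes were 0.02, with quartiles of -0.77 and 0.82 at 24 h and of -0.86 and 0.93 at 72 h. The median untreated levels were 3.05 and 4.62 log2 CPM without untreated Iceland replicate 3.

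The rises took up a growing part of the transcript pool and the falls a shrinking one. The 618 unigenes together held 1.5%, 1.59% and 1.5% of all counts in the 24 h libraries and 4.06%, 4.14% and 3.74% at 72 h. The 531 held 9.17%, 8.59% and 8.62% at 24 h and 4.58%, 4.39% and 4.63% at 72 h, of which Unigene0018005 alone accounted for 3.31%, 3.07% and 3.04%, and 1.67%, 1.47% and 1.61%. These libraries chose the lists, so the separation within Iceland is no independent result. Untreated Iceland leaves held 1.3% to 1.64% of counts in the first list and 6.78% to 8.57% in the second.

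America leaves give a view of the same unigenes in libraries outside the comparison that chose them. That view is not fully independent, since the America libraries entered the filter, the scaling and the estimate of spread. There the 618 unigenes held 1.9%, 1.89% and 2.42% of counts at 24 h and 3.16%, 3.31% and 3.21% at 72 h. The 531 held 7.37%, 7.35% and 5.77% at 24 h and 5.11%, 4.81% and 5.3% at 72 h. In both lists the America libraries of the 2 times did not overlap and differed in the direction seen in Iceland.

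**Figure D4:**
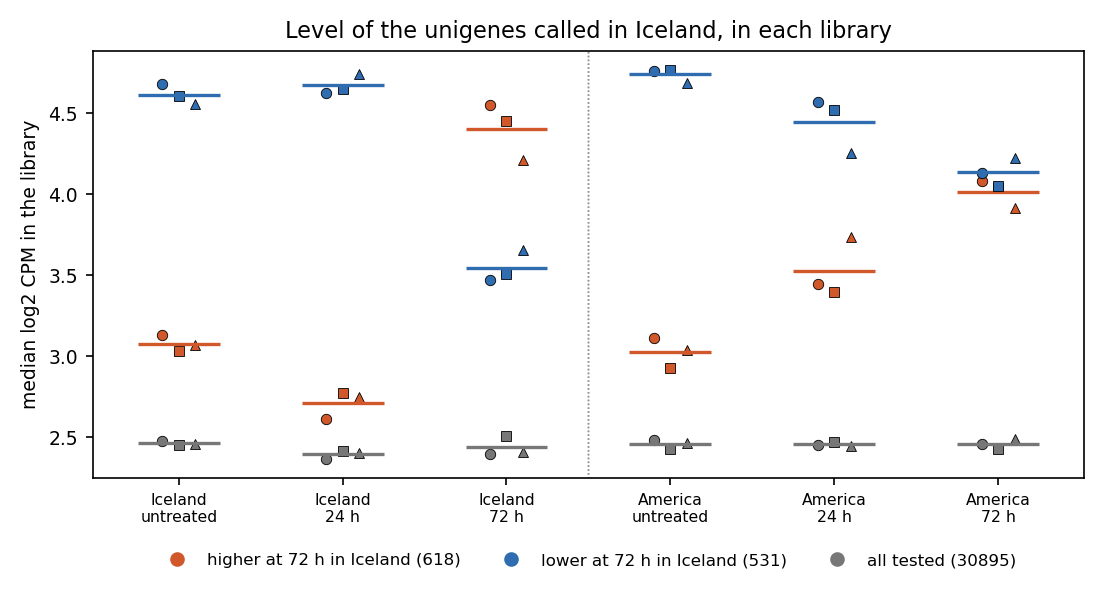
Each point is the median log2 CPM, in 1 library, of the 618 unigenes that rose (orange), the 531 that fell (blue) or all 30895 tested (grey), with bars for group means. The 2 lists were chosen by comparing the Iceland 24 h and 72 h libraries. The America libraries entered only the filter, the scaling and the estimate of spread. In America the orange points are higher and the blue points lower at 72 h than at 24 h, by less than in Iceland.

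By unigene, the changes in America went mostly the same way and were smaller. The unigenes that rose in Iceland had a median log2 change of 0.32 from 24 h to 72 h in America, and 449 of 618, or 72.7%, were above 0, beside 47.9% of all unigenes tested. Those that fell in Iceland had a median of -0.38 in America, with 429 of 531, or 80.8%, below 0, beside 51.1% of all. Of the smaller group that passed in every refit without 1 Iceland library, 76 of 101 rises and 58 of 66 falls had the same sign in America, with medians of 0.52 and -0.56. Values chosen for being large in one set of libraries tend to be smaller in another, so the difference in size between the origins was read only from the test of the difference given below.

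America leaves had 250 rises and 187 falls of their own between the times (edgeR), which are 0.809% and 0.605% of the unigenes tested, or 1.41% together. Their number, 437, was 118 and 105 without America 24 h replicates 1 and 2, 130, 135 and 186 without 72 h replicates 1, 2 and 3, and 744 without untreated Iceland replicate 3. In both origins 79 unigenes rose, 12.8% of the Iceland list and 31.6% of the America list, and 54 fell, 10.2% and 28.9%. The 2 comparisons set no library in common against another, but they share the filter, the scaling and the estimate of spread. In Iceland the America lists had median log2 changes of 0.61 and -0.47, and 226 of 250 and 166 of 187 had the same sign. The number that rose or fell in both origins, 133 in all, lay between 42 and 226 when 1 library was left out, and was 226 without untreated Iceland replicate 3.

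**Figure D5:**
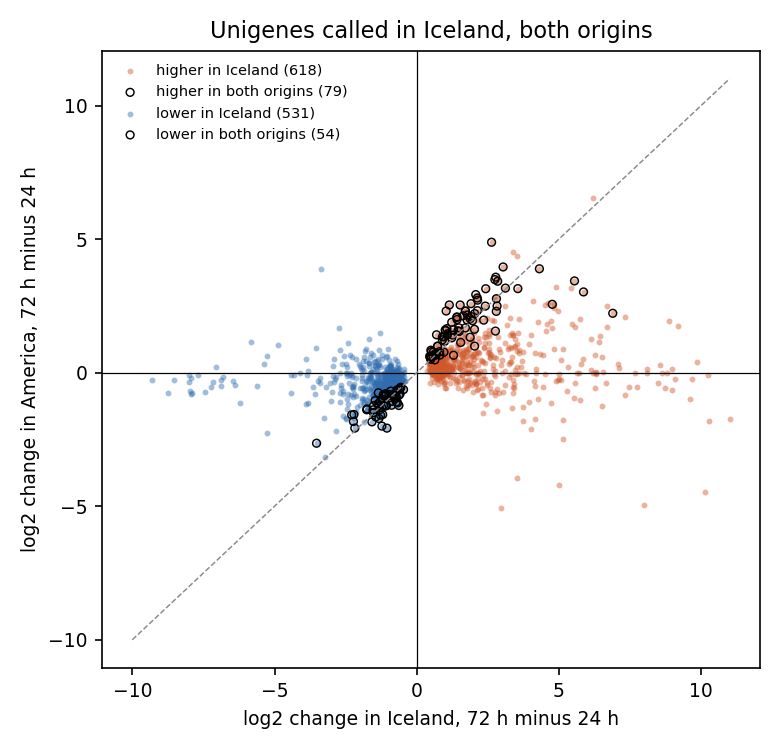
Each point is 1 of the 1149 unigenes called in Iceland, with its log2 change from 24 h to 72 h in Iceland on the horizontal axis and in America on the vertical axis; circles mark the 79 and 54 called in the same direction in both origins, and the dashed line marks equal changes. Most points lie on the same side of 0 in both origins, and most lie nearer to 0 in America.

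The rule named the unigene with the strongest change shared by the origins in each direction. Unigene0020984 was at 1.47, 2.28 and 0.817 CPM in Iceland leaves at 24 h and 18.3, 20.2 and 54.4 CPM at 72 h, a 20.3-fold rise in mean CPM without overlap (log2 change 4.31 ± 0.74 SE, edgeR adjusted p = 0.00759). In America leaves it was at 3.73, 2.61 and 22.5 CPM at 24 h and 182, 134 and 108 CPM at 72 h (log2 change 3.89 ± 0.67 SE, edgeR adjusted p = 0.00937). Its 72 h level was thus lower in Iceland, while the log2 changes differed by 0.43 ± 0.92 SE. In untreated leaves it stood at 2.00 ± 0.301 CPM in Iceland and 2.62 ± 1.06 in America (SD, n = 3 each). The Iceland call held in all 13 refits, with a log2 change of 3.62 without 72 h replicate 3, the highest library (edgeR adjusted p = 0.0145). The America call was lost in 2 of 13, with adjusted p of 0.0764 in a fit of only the groups compared and 0.0547 without America 24 h replicate 1.

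Unigene0033334 fell in both origins. It was at 315, 384 and 451 CPM in Iceland leaves at 24 h and 67.7, 70.0 and 116 CPM at 72 h (log2 change -2.18 ± 0.36 SE, edgeR adjusted p = 0.00669). America leaves held 447, 585 and 299 CPM at 24 h and 62.5, 104 and 150 CPM at 72 h (log2 change -2.08 ± 0.36 SE, edgeR adjusted p = 0.00952). The times did not overlap in either origin. Untreated leaves held 449 ± 129 CPM in Iceland and 697 ± 236 in America (SD, n = 3 each). The Iceland call held in all 13 refits, and the America call was lost in 4 of 13 (adjusted p up to 0.0603).

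Whether the step from 24 h to 72 h differed between the origins was tested directly. The difference passed in 25 unigenes, 0.0809% of those tested, of which the Iceland change was the more positive one in 16 (0.0518%) and the more negative one in 9 (0.0291%) by edgeR. DESeq2 called 459 and limma-voom 8. Without 1 library the edgeR count lay between 0 and 66: it was 0 without America 72 h replicate 3 (3069 unigenes at unadjusted p under 0.05 in that refit), 1 without America 72 h replicate 2 or Iceland 72 h replicate 1, and 66 without Iceland 72 h replicate 3. The test therefore does not show that the remaining unigenes changed alike, and the larger number of calls in Iceland than in America is not shown to be a difference between the origins.

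Unigene0056382 had the largest difference in CPM. In Iceland leaves it stood at 0.461, 5.15 and 3.68 CPM at 24 h and 454, 433 and 226 CPM at 72 h, a 120-fold rise in mean CPM and the smallest p of the comparison of times before adjustment (log2 change 6.89 ± 0.57 SE, edgeR adjusted p = 8.75e-05). In America leaves it stood at 8.85, 17.5 and 19.4 CPM at 24 h and 74.9, 66.3 and 72.3 CPM at 72 h (log2 change 2.22 ± 0.46 SE, edgeR adjusted p = 0.0275). Iceland leaves were thus below America leaves at 24 h and above them at 72 h, with no overlap at either time. The difference of the log2 changes was 4.67 ± 0.67 SE (edgeR adjusted p = 0.0306, lost in 7 of 19 refits, up to 0.105). In untreated leaves there were 3 counts over the Iceland libraries and 11 over the America libraries.

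The largest fitted difference was that of Unigene0045157. It had 1 count over the Iceland 24 h libraries and 35.0, 9.44 and 96.0 CPM at 72 h (edgeR adjusted p = 0.0107). The pooled counts differed 1591-fold (95% counting interval 285 to 62897), where the interval leaves out the spread among the libraries. America leaves held 23.3, 0.153 and 1.64 CPM at 24 h and 0.607, 0.173 and 0.298 CPM at 72 h, where only 24 h replicate 1 was high. The difference (edgeR adjusted p = 0.0369) was lost in 10 of 19 refits.

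Of the unigenes with a more negative change in Iceland, Unigene0001903 had the largest difference in CPM. It was at 202, 171 and 151 CPM in Iceland leaves at 24 h and 93.7, 112 and 123 CPM at 72 h, a change that did not pass on its own (log2 change -0.67 ± 0.19 SE, edgeR adjusted p = 0.0583). America leaves held 49.6, 60.6 and 67.7 CPM at 24 h and 162, 116 and 104 CPM at 72 h (log2 change 1.10 ± 0.19 SE, edgeR adjusted p = 0.00919). The origins were therefore apart at 24 h and overlapped at 72 h, and the difference of -1.77 ± 0.26 SE passed (edgeR adjusted p = 0.0306, lost in 9 of 19 refits). Unigene0058774, of low abundance, was at 7.28, 2.45 and 6.33 CPM in Iceland leaves at 24 h and 0.338, 0.787 and 1.24 CPM at 72 h (edgeR adjusted p = 0.0141). In America leaves it stood at 1.70 ± 0.147 and 5.48 ± 0.621 CPM (SD, n = 3 each), and the difference of -4.42 ± 0.74 SE passed (edgeR adjusted p = 0.0369, lost in 12 of 19 refits).

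A pair of unigenes, singled out after their values were seen, passed in opposite directions in the origins. Unigene0006285 rose in Iceland leaves from 0.276, 1.44 and 1.63 CPM to 8.96, 2.66 and 14.6 CPM (edgeR adjusted p = 0.0456) and fell in America leaves from 4.86, 2.22 and 1.82 CPM to 3 counts over the 72 h libraries (edgeR adjusted p = 0.0237). Unigene0026016 fell in Iceland leaves from 33.3, 37.1 and 89.4 CPM to 20.1, 21.9 and 22.6 CPM (edgeR adjusted p = 0.0406) and rose in America leaves from 21.2 ± 4.5 to 59.2 ± 20.1 CPM (SD, n = 3 each, edgeR adjusted p = 0.0366). Untreated leaves held 17.4 ± 0.573 CPM of it in Iceland and 18.0 ± 2.96 in America, so Iceland leaves at 72 h and America leaves at 24 h were both near the untreated level. The test of the difference passed for both (edgeR adjusted p = 0.0369 each). Over the 6 refits without 1 Iceland PEG library, the Iceland call passed in 1 for Unigene0006285 and in 2 for Unigene0026016.

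The called unigenes were longer than the tested ones as a whole. The length behind the FPKM values had a median of 1605 bases in unigenes that rose and 1763 in those that fell, beside 1362 over all tested. In the 2 more abundant classes the medians were 1861 and 1948, beside 1877 over all tested there. Abundance and length go together in these counts, and their part in the difference was not tested.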

How the data were processed

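Per the labels, Trizol was used for RNA extraction and Illumina protocols for library preparation. Tools listed without roles in the submitters' processing notes are RSEM 1.3.1, cutadapt 1.18 and bcl2fastq 2.0.1. For the assembler, annotation and strand, nothing is given in the sources used here. The authors deposited whole-number counts per unigene, which may be rounded RSEM estimates. The deposited FPKM values scale these counts by library total and by 1 length per unigene, which they served to recover, and were not tested (implied lengths differed by at most 0.0352% between libraries in 256 unigenes with high counts).

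Counts were filtered with filterByExpr, scaled by TMM and fitted in R 4.3.3 with edgeR 4.0.16 (quasi-likelihood, 6 group means, all 18 libraries, 12 residual degrees of freedom, adjusted p threshold 0.05). The 3 comparisons were 72 h against 24 h in each origin, and the difference between origins. Each SE of a log2 change was worked back from the test, as the absolute log2 change over the square root of the F statistic. Log2 CPM adds a prior count of 2, while the fitted log2 changes use the lower default prior of the fit, 0.125. Folds against 0 counts use 3 counts over the group. Intervals are exact binomial at 95% on counts pooled over a group, so they cover counting error only. Differences in library measures were tested by exact permutation, where 3 against 3 cannot give p below 0.1.

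The naming rule took called unigenes with a mean of 5 CPM or more in an Iceland PEG group. For the comparison of times, which also required that the groups not overlap, it took the largest log2 change and the largest change in mean CPM in each direction. For the difference between origins it took the same 2 by difference, and for calls in both origins the largest smaller log2 change. The members and lists were chosen with earlier results of these data known. No gene list could be matched, since the table holds no names. The fit was tested on simulated data, where the Iceland comparison recovered 34% of unigenes changed 2-fold and 85% of those changed 4-fold. No replicate pair agreed within sampling noise (chi-square per unigene 5.99 to 68.2). Alternatives were DESeq2 size factors, no filter, the Wald test of DESeq2 1.42.0, limma-voom (limma 3.58.1), only the groups compared, a replicate block, a 2-fold minimum and leaving out single libraries, which applied the filter anew.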

Additional observations from a re-analysis of the deposited data

Results flagged for a closer look

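The direct test for a difference between Iceland and America leaves in the change from 24 h to 72 h passed in 25 unigenes (edgeR). These are 0.0809% of the unigenes tested. The count was 0 without America 72 h replicate 3 and 66 without Iceland 72 h replicate 3. The 4 named ones had log2 differences (Iceland minus America) of 14.60 for Unigene0045157, 4.67 for Unigene0056382, -4.42 for Unigene0058774 and -1.77 for Unigene0001903. The value for Unigene0045157 depends on the prior count of the fit, since 1 count was seen over the Iceland 24 h libraries, and is no bound. Out of 19 refits, between 7 and 12 no longer called each of the 4, with adjusted p up to 0.384.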

How the results depend on the processing

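No unigene taken by the naming rule changed direction in any refit of the comparison that named it. For the unigenes singled out after their values were seen, direction was not recorded over all refits. The balance of the Iceland calls did change: rises were 45.8% to 62.8% of calls without single libraries, against 53.8% with all. The 1149 Iceland calls became 2591 with the DESeq2 Wald test, 751 with a 2-fold minimum, and 231 to 1812 without single libraries. The 25 differences between origins became 208 with no filter, 8 with limma-voom, 459 with DESeq2, and 0 to 66 without single libraries (edgeR, with 2625 to 4082 unigenes at unadjusted p under 0.05). The 437 America calls became 1483 with DESeq2, 204 in a fit of only the groups compared, 266 with a 2-fold minimum, and 105 to 744 without single libraries. The 133 calls shared by the origins became 469, 60, 82, and 42 to 226 under the same settings. The cause was not tested where samples and unigenes tested stayed the same. Of the 1149 calls, 1137 were shared with DESeq2 size factors, 850 with limma-voom, 1136 with the DESeq2 Wald test and 643 with a fit of the 6 libraries alone.

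The share of the 200 most abundant unigenes differed by -3.51 points when ranked over the 6 Iceland PEG libraries and by -3.15 for the 20 most abundant, and by -4.51 to -3.88 without single libraries. The difference in detected unigenes was 1021 to 2082 without single libraries. Calls by class of FPKM were 117, 199, 346 and 487 from the least to the most abundant, against 137, 211, 335 and 466 by log2 CPM. In the most abundant class by FPKM the median log2 change was 0.97 for rises and -0.95 for falls, so rises were the larger. The greater length of called unigenes did not hold for rises in the 2 more abundant classes, at 1861 bases against 1877 over all tested there. Falls stood at 1948 bases. No pairing of the samples by number was evident. Deviations of same-numbered Iceland libraries from their group means correlated at -0.0355, 0.0871 and -0.0119, and not every library correlated best with its own number. With 3 libraries per group these correlations cannot exclude a pairing. A replicate block gave 847 Iceland calls, 22 differences, 316 America calls and 100 shared calls, and Unigene0018005, Unigene0079724 and Unigene0058774 did not pass with it.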
